A study of Mus musculus with 4 samples.

Results

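Group 2 innate lymphoid cells (ILC2s) are tissue-resident lymphocytes without antigen receptors that release type 2 cytokines when epithelial alarmins such as IL-33 reach them. The genes examined here are 10 transcription factors that build or keep ILC2 identity, Gata3, Rora, Id2, Bcl11b, Gfi1, Tcf7, Ets1, Maf, Tox and Nfil3, taken by name. All 10 were found among the 22554 genes of the count table. RNA came from sorted lung ILC2s of wild-type BALB/c mice, 6 weeks old, that were cultured overnight with IL-2, IL-7 and IL-33. To these cells either vehicle or compound 5D, a small molecule that blocks the Orai calcium channels, was added, and 2 libraries were sequenced per group. The labels number the libraries of a group but do not say whether they came from separate mice or cultures, so each p-value measures only the spread between these libraries, which may be technical. The question put to these genes was how strongly each factor was expressed and whether its level moved with 5D.

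The factors act at different steps. TOX and NFIL3 are needed early, when a common lymphoid progenitor enters the innate lymphoid lineage, and ID2 keeps it there by binding E proteins and so blocking their DNA binding. TCF-1, the product of Tcf7, is also an early factor and helps to switch on Gata3. GATA3, RORα, BCL11B and GFI1 then specify and hold the ILC2 fate, with BCL11B and GFI1 also restraining genes of other lymphoid fates, while ETS1 and c-MAF act in mature ILC2s and in many other lymphocytes.

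The libraries held 20096555 to 28697265 counts. Among 11 listed ILC2 markers all were tested, and their summed level was 10215 and 10050 normalized CPM (CPM after upper-quartile scaling) with vehicle, against 9355 and 9837 with 5D. The largest part was the cytokine gene Il5 (4752 and 4710 with vehicle, 4377 and 4548 with 5D), so the sum does not follow ILC2 content alone. By edgeR 0 markers passed an adjusted p-value of 0.05. At an unadjusted p under 0.05, 1 was higher and 4 were lower, 45.5% beside 7.34% of all genes. Their median standard error was 0.049, against 0.19 over all genes. Most of these markers return in the downstream list below. Most markers that define other cells were near 0. Cd4 had 0 counts in every library, which allows up to 3 counts each, Cd5 had 0 to 4, and Tbx21, Eomes and Ncr1 of NK cells and ILC1s had 0 to 7. The 6 T cell markers with a row summed to 30.96 and 28.63 normalized CPM with vehicle, against 33.97 and 33.75 with 5D, mostly from Cd3g with 445 to 702 counts, with Cd3e at 63 to 112 and Cd28 at 112 and 60 with vehicle against 185 and 174 under 5D (log2 fold change 0.71, unadjusted p = 0.0191, adjusted p = 0.566 from edgeR). Several factors are also expressed in T cells, and the part of these differences in their values was not tested. The 5 myeloid markers summed to 0.280 to 3.30 normalized CPM, the 4 mast cell and basophil markers to 2.25 to 5.55, and the B cell, erythroid and fibroblast lists to less than 1. Of these Lyz2 had 4 to 35 counts, Cd14 3 to 10, Cpa3 25 to 81, Fcer1a 11 to 61, Mcpt8 7 to 30, Cd79a 4 to 5 and Alas2 1 to 8. Epcam (510 to 792 counts), Pecam1 (426 to 551 counts) and Il22 (476 to 725 counts), listed for epithelium, endothelium and ILC3s, were not near 0, and neither was Cd3g. Pecam1 had a log2 fold change of -0.34 with 5D (adjusted p = 0.642 from edgeR), and the eosinophil gene Ccr3 had 101 to 120 counts. In such bulk RNA, fewer cells of a type and less RNA per cell cannot be told apart.

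Compared per length, the 10 factors covered more than 3 orders of magnitude. Id2 was the most abundant at 611 ± 29.8 RPKM (normalized CPM per kilobase of merged exons, SD over n = 4 libraries) and ranked 59 among the 17352 tested genes with an exon length. Gata3 followed with 276 ± 1.81 RPKM and rank 184. Ets1 reached 55.1 ± 1.89 RPKM, Nfil3 34.6 ± 3.29, Bcl11b 22.8 ± 1.53 and Rora 18.3 ± 0.964. Gfi1 at 9.71 ± 0.406 and Maf at 9.18 ± 0.740 RPKM were the one pair of neighbours whose ranges over the 4 libraries overlapped, so that their order is not resolved. The ranges cover the spread between libraries only, and the order also rests on the merged exon lengths. Before division by length, Rora (mean 239 normalized CPM) lay above Bcl11b (185), and both lay above Nfil3 (70.1). Tox stood at 3.57 ± 0.216 RPKM, above 54.8% of the tested genes. Tcf7 was last at 0.358 ± 0.172 RPKM, 9.96-fold below Tox, and only 25.4% of the tested genes lay lower. Tcf7 thus rested on few counts, whereas the other factors had 583 to 42612 per library. The group means stood in the same order with vehicle and with 5D, and in single libraries Gfi1 and Maf alone changed places, in 5D replicate 1, as the plot of levels by library shows.

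**Figure D1:**
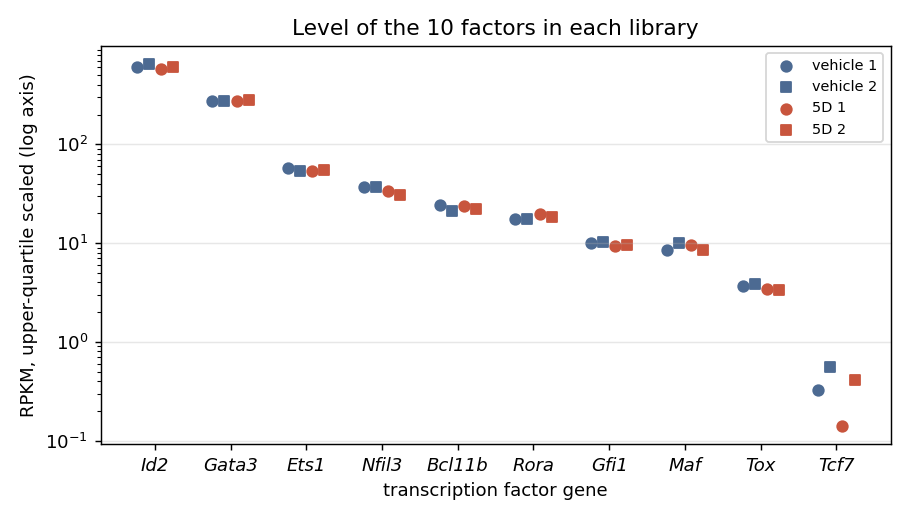
RPKM on a log axis (upper-quartile scaled CPM per kilobase of merged exons) of the 10 factors in each of the 2 vehicle (blue) and 2 5D (red) libraries, ordered by mean. Id2 and Gata3 stand above the rest at 611 and 276 RPKM, and Tcf7 below it at 0.358 RPKM with the widest scatter.

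Among the 10 factors, 0 passed an adjusted p-value of 0.05 by edgeR's quasi-likelihood model, where 0.0963% of the 17650 genes tested did (0.0283% higher and 0.068% lower with 5D). Before adjustment 1 factor (Nfil3) was lower and 0 were higher at p under 0.05, beside 3.84% and 3.5% of all genes and 7.34% in both directions. DESeq2's Wald test also gave 0 adjusted and 1 unadjusted, with no adjusted p-value for Gfi1, Tox and Tcf7. In 4 of the 10 factors the libraries of the groups did not overlap, against 37.6% of all genes. By sign, 7 factors were lower and 3 higher, with a median log2 fold change of -0.063, where the median over all genes tested was -0.0016. The median absolute change of the factors was 0.090 on the log2 scale with a median standard error of 0.076, and over all genes these were 0.15 and 0.19. For 9 of the 10 factors the 95% interval of the change lay within 25% of the vehicle level in either direction, from -23.9% at its lowest bound to 16.5% at its highest. Tcf7 was the exception. These intervals say which changes the data leave room for, and a p-value above the threshold does not show that a level stayed the same. An exact permutation test of 2 against 2 libraries has 0.333 as its smallest p, so that the p-values rest on the spread edgeR shares between genes.

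**Figure D2:**
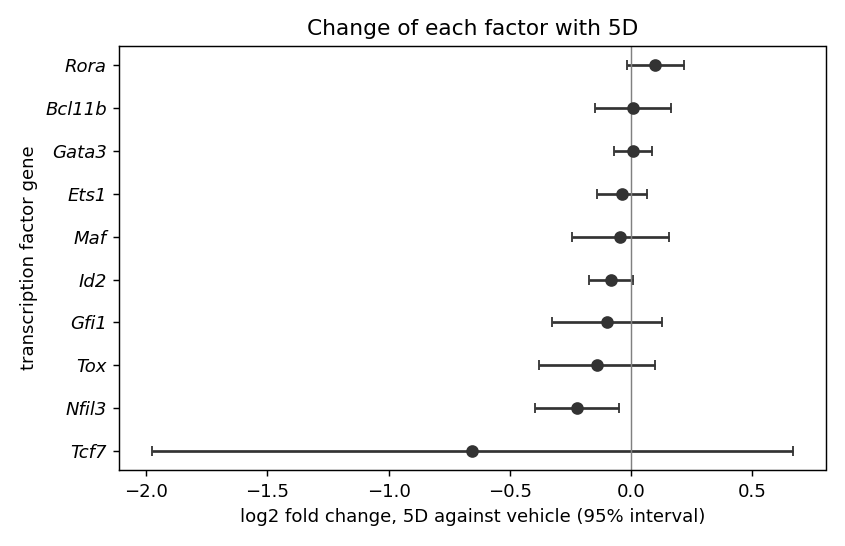
Log2 fold change of 5D against vehicle for each factor with its 95% interval from edgeR (n = 2 libraries per group). The intervals of 9 factors include 0, that of Nfil3 lies below it, and that of Tcf7 runs from -1.98 to 0.67.

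Gata3 (ENSMUSG00000015619.10, chromosome 2 of mm10 from 9857078 to 9890034) encodes the zinc-finger factor without which ILC2s do not develop or persist. Vehicle libraries held 1091 and 1099 normalized CPM of it, 5D libraries 1095 and 1108. In order of level the groups alternated, so that neither lay above the other. Its interval was the narrowest of the 10, from -4.69% to 6.07% (log2 fold change 0.0079, standard error 0.035, adjusted p = 0.988 from edgeR), and 96.3% of all genes tested had a larger absolute change. Most genes were measured less precisely, with a median standard error of 0.19, so this share is no measure of stability. Id2 (ENSMUSG00000020644.9, chromosome 12 from 25093799 to 25097140), the inhibitor of E proteins, had 1482 and 1581 normalized CPM with vehicle, against 1403 and 1490.3 with 5D. Both groups held a higher replicate 2, by 0.093 and 0.087 on the log2 scale, which is about as much as the groups differed, and their ranges overlapped. The log2 fold change was -0.082 (standard error 0.042, 95% interval -0.18 to 0.010, adjusted p = 0.729 from edgeR). Its unadjusted p-value was 0.0770, and 0.0395 with limma-voom, 0.0240 with the replicate number as a block, 0.00883 without vehicle replicate 1 and 0.0179 without 5D replicate 2. The adjusted p-value did not go below 0.219 in any of these fits, and without vehicle replicate 2 or 5D replicate 1 the change was -0.038 or -0.043.

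Nfil3 (ENSMUSG00000056749.7, chromosome 13 from 52967209 to 52981073) encodes a basic leucine zipper repressor, best known for its part in NK cell and innate lymphoid development and in the circadian clock. It had 1753 and 1511 counts with vehicle and 1839 and 1765 with 5D, in libraries of unequal size. Scaled to normalized CPM, the vehicle libraries stood at 75.5 and 75.5 and the 5D libraries at 67.8 and 61.7, so that the groups did not overlap and 5D was the lower. The estimated log2 fold change was -0.22 (standard error 0.079, 95% interval -0.39 to -0.049), with an unadjusted p-value of 0.0164 and an adjusted p-value of 0.566 from edgeR. It does not pass over all genes tested. The 2 vehicle libraries differed by 0.00057 on the log2 scale and the 5D libraries by 0.13, and without 5D replicate 2 the change was -0.16 (unadjusted p = 0.131 from edgeR).

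Rora (ENSMUSG00000032238.17, chromosome 9 from 68653786 to 69388246) encodes RORα, the nuclear receptor that ILC2s require. It showed the opposite arrangement, with 231 and 231 normalized CPM in vehicle-treated cells against 258 and 238 in 5D-treated cells. The groups did not overlap, but the 5D libraries lay further from each other than the lower of them lay from vehicle. The log2 fold change was 0.10 (95% interval -0.018 to 0.22, adjusted p = 0.750 from edgeR), and 0.039 without 5D replicate 1. Leaving out 5D replicate 2 gave 0.16 with an unadjusted p-value of 0.0295 and an adjusted p-value of 0.822.

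BCL11B and GFI1 are zinc-finger repressors. Bcl11b (ENSMUSG00000048251.15, chromosome 12 from 107910403 to 108003602) had 198 and 170.0 normalized CPM in vehicle-treated cells, against 191 and 179.8 in 5D-treated cells. Both 5D values fell inside the vehicle range, and the vehicle libraries differed by 0.22 on the log2 scale, far more than the groups, whose log2 fold change was 0.0089 (95% interval -0.15 to 0.17). Gfi1 (ENSMUSG00000029275.18, chromosome 5 from 107716657 to 107726036) had 31.6 and 32.4 normalized CPM in vehicle-treated cells, against 29.5 and 30.3 in 5D-treated cells. Here the groups did not overlap, yet the gap was small, and at 648 to 867 counts per library the log2 fold change of -0.097 had an interval from -0.32 to 0.13 (adjusted p = 0.900 from edgeR).

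Ets1 (ENSMUSG00000032035.15, chromosome 9 from 32636221 to 32757820), founding member of the ETS family, reached 490.5 and 456 normalized CPM with vehicle, against 457 and 466 under 5D. One vehicle library was the highest and the other the lowest of the 4, and the log2 fold change was -0.037 (95% interval -0.14 to 0.067). Maf (ENSMUSG00000055435.6, chromosome 8 from 115682942 to 115707794), which encodes c-MAF, had 70.7 and 83.0 normalized CPM with vehicle, against 78.3 and 70.6 under 5D. Each group held a high and a low library, and the ranges overlapped (log2 fold change -0.044, 95% interval -0.25 to 0.16). Tox (ENSMUSG00000041272.11, chromosome 4 from 6686353 to 6991557), an HMG-box factor, had 27.8 and 29.1 normalized CPM with vehicle, against 26.3 and 25.4 under 5D. The groups did not overlap, with a log2 fold change of -0.14 (standard error 0.11, 95% interval -0.38 to 0.10, adjusted p = 0.849 from edgeR).

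Tcf7 (ENSMUSG00000000782.15, chromosome 11 from 52252371 to 52283014) had 20 and 29 counts with vehicle and 10 and 31 with 5D. The lowest and the highest count were both in the 5D group. Exact 95% Poisson intervals, which cover counting error only, ran from 12.2 to 30.9 and from 19.4 to 41.6 counts with vehicle, and from 4.80 to 18.4 and from 21.1 to 44.0 with 5D, so that the interval of 5D replicate 1 lay below those of 5D replicate 2 and vehicle replicate 2. Scaled, the levels were 0.861, 1.45, 0.368 and 1.08 normalized CPM in the same order. The log2 fold change of -0.65 had a 95% interval from -1.98 to 0.67 (standard error 0.60, adjusted p = 0.883 from edgeR). It was -0.088 without 5D replicate 1 and -1.63 without 5D replicate 2, so that no direction can be read at this depth. The count table ends this gene beyond the end in the annotation copy used here, and the exon length behind its RPKM leaves those bases out.

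**Figure D3:**
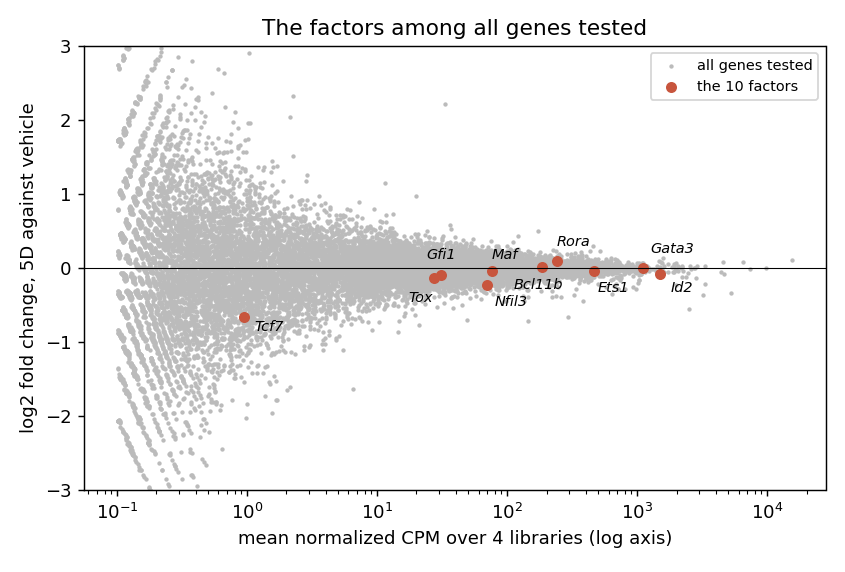
Log2 fold change of 5D against vehicle plotted against the mean normalized CPM (log axis) for all 17650 genes tested (grey) and the 10 factors (red), with 221 genes outside the axis limits of 3 in either direction not drawn. The factors other than Tcf7 lie in the narrow, well-measured part of the cloud near 0, and Tcf7 lies in its wide, low part.

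Counting could mix in reads of overlapping genes for 5 of the factors. The share of exon length concerned was at most 5.34%, for Maf, whose exons share 440 bases with the antisense gene Gm15655. In Gata3, 155 bases are shared with the antisense gene Gm13256 and 77 with 9230102O04Rik, genes that themselves had 55.5 to 100 counts against 21996 to 31677 of Gata3. Rora, Gfi1 and Tox share 82, 101 and 260 bases with genes on the opposite strand, and whether the counting used the strand is not given in the sources used here. Apart from Gm15655 and Gm11802, which overlap Maf and Tox, no other gene carried a stretch of at least 150 nt at 95% identity with a factor.

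RefSeq (GRCm38.p6) windows of 250 bases before a listed start could be matched for 7 of the 10 factors. In most cases these windows also held annotated exon bases, 250 of 250 in Gata3 and Gfi1, 188 in Bcl11b, 161 in Id2 and 34 in Nfil3, and 0 in Rora and Tcf7. The window of Tcf7 begins where the annotation copy ends this gene, short of its end in the count table. From an ATG inside this window the bases read without a stop codon to its end, as the start of TCF-1. The 0 for Tcf7 thus misses coding exon bases. The 250 bases before the start of Rora are shown because GATA3 is the central factor of the group and this was the only one of the 7 windows with a GATA match, written in capitals, at chr9:68653536-68653785 on the plus strand.
Rora: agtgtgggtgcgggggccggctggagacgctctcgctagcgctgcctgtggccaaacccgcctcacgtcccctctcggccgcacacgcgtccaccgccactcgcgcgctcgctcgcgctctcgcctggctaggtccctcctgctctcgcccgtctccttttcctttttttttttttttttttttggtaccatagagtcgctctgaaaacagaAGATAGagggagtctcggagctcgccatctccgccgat
The GATA motif was searched on both strands as AGATAA, with AGATAG as its second form, and also with T as the first letter (TGATAA in one form, then TGATAG in the other). One of these occurs in 26.5% of all 32851 windows of this length in the table. The window was 61.2% G or C, and the median over all windows was 52.4%. The E-box CANNTG, the site class of the E proteins that ID2 restrains, was matched in 66.2% of all windows. Of the 7 windows here 4 had a match, those of Id2, Gfi1, Tcf7 and Nfil3. In Tcf7 the match lies within the coding bases that follow the ATG. A match of letters is no evidence of binding.

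Of the 9 factors with a relative in the table, 5 were higher than each relative listed, as the plot of relatives shows. The relative of Gfi1, Gfi1b, was not analysed here. GATA3 has the hematopoietic relatives GATA1 and GATA2, whose genes had 6 to 12 and 1 to 27 counts per library, so that Gata3 made up 99.9% of the summed RPKM of these genes. Rorb had 2 to 4 counts beside Rora, and Bcl11a had 0 or 1 beside Bcl11b. Id2 stood at 97.2% to 97.5% of the ID genes and was 37.1 to 41.4-fold above Id3 (15.9 ± 1.21 RPKM, n = 4). Ets1 was 7.99 to 9.14-fold above Ets2 (6.41 ± 0.304 RPKM), the only ETS gene listed as its relative. Further ETS genes in the wider list below lay closer to Ets1 (55.1 RPKM), Fli1 at 39.5 ± 1.39, Elf1 at 23.4 ± 0.488 and Elf4 at 11.7 ± 0.466 RPKM.

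In the other 4 families a relative was higher than the listed factor in every library. Tox2 (59.0 ± 2.69 RPKM) was 14.4 to 17.9-fold above Tox, and Tox4 (15.2 ± 0.795 RPKM) was 3.88 to 4.79-fold above it, leaving Tox 4.23% to 5.17% of the 3 genes. Lef1, which encodes the closest relative of TCF-1, was measured at 2.34 ± 0.323 RPKM and Tcf7l1 at 1.63 ± 0.432 RPKM, while Tcf7 stayed between 0.140 and 0.552 RPKM. Among the MAF genes, the small MAF partners Mafg (15.0 ± 0.556 RPKM) and Mafk (13.4 ± 0.977 RPKM) lay above Maf, and Maff (1.47 ± 0.215 RPKM) lay below. For Nfil3 the higher relative was Hlf (46.1 ± 3.63 RPKM). Its product belongs to the PAR basic leucine zipper activators, which bind the same D-box sites as the repressor NFIL3.

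**Figure D4:**
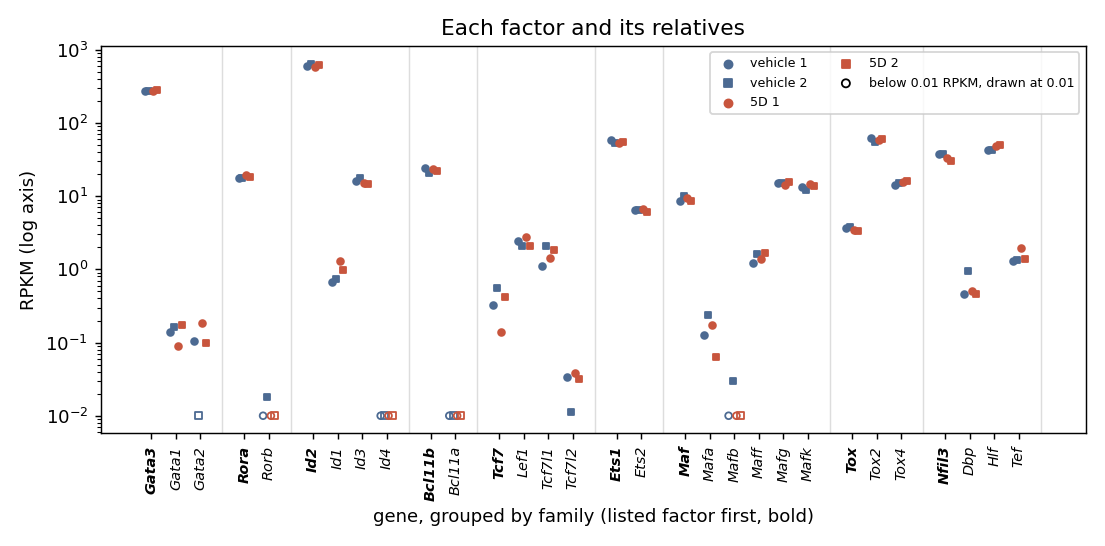
RPKM (log axis) of each factor, first and in bold, and of its family members in the 2 vehicle (blue) and 2 5D (red) libraries, with open symbols for values below 0.01 RPKM drawn at 0.01. Gata3, Rora, Id2, Bcl11b and Ets1 are higher than each relative drawn, whereas Tcf7, Maf, Tox and Nfil3 are not.

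Of 26 listed relatives 21 had a row in the table and 18 were tested. By edgeR 0 passed an adjusted p-value of 0.05, and unadjusted 1 was higher and 0 were lower, 5.56% of the relatives and near the 7.34% of all genes. The higher one was Hlf, with 286 and 288 normalized CPM in vehicle-treated cells against 325 and 332 in 5D-treated cells. Its log2 fold change was 0.20 (standard error 0.046, unadjusted p = 0.00137, adjusted p = 0.344 from edgeR). Set beside Nfil3, which had lower values with 5D, Hlf was 1.15 and 1.16-fold above Nfil3 in the vehicle libraries and 1.46 and 1.63-fold above it in the 5D libraries. The share of Nfil3 in its 4 genes was 45.3% with vehicle and 38.3% with 5D, a comparison made after the values were seen and without a test. Tef, another PAR factor, had a log2 fold change of 0.36 (adjusted p = 0.742) and Dbp one of -0.53 (adjusted p = 0.856), both from edgeR, Dbp at 32 to 57 counts.

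A wider list of 43 lymphoid transcription factors was tested in full, and likewise 0 passed an adjusted p-value of 0.05 by edgeR. When unadjusted 1 was higher and 5 were lower, 13.95% of the list beside 7.34% of all genes. The median standard error of the list was 0.10, against 0.19 over all genes, so these shares differ in precision as well. The median log2 fold change was -0.042, and 28 of the 43 had a negative sign, as did 8887 of all 17650 genes. In level per length over the 4 libraries the genes most like Gata3 were Batf (66.0 ± 5.25 RPKM), Pparg (62.9 ± 3.91 RPKM) and Cbfb (50.7 ± 1.10 RPKM), at root mean square distances of 2.07, 2.14 and 2.44 on the log2 scale. All 3 were thus well below Gata3 in level. Myb, a factor of proliferating progenitors, had the smallest p-value, with 36.1 and 38.4 normalized CPM in vehicle-treated against 28.2 and 29.6 in 5D-treated cells (log2 fold change -0.37, unadjusted p = 0.00428, adjusted p = 0.478 from edgeR). Ikzf3, which encodes Aiolos, was the one higher among these, at 231 and 224 with vehicle against 258 and 252 normalized CPM under 5D (log2 fold change 0.16, unadjusted p = 0.00728, adjusted p = 0.520 from edgeR). Batf had a log2 fold change of -0.18 (adjusted p = 0.583 from edgeR) and Pparg one of -0.070 (adjusted p = 0.888 from edgeR).

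Listed genes of other lymphoid and myeloid fates were mostly close to 0, but Cebpb, Il22 and Ahr were clearly expressed. Of 13 listed, 11 had a row and 6 were tested, with 0 higher and 1 lower when unadjusted (beside 3.5% and 3.84% of all genes), and 0 past an adjusted p-value of 0.05 by edgeR. The lower one was Foxp3, the factor of regulatory T cells, with 92 and 46 counts in vehicle-treated against 50 and 45 in 5D-treated cells (log2 fold change -0.88, adjusted p = 0.624 from edgeR). Foxp3 is also in the wider list above and was counted among its lower genes. Ebf1, a B cell factor, had the next smallest p-value at 3 and 4 counts against 15 and 8 (log2 fold change 1.32, adjusted p = 0.825 from edgeR). Tbx21, Eomes, Il23r and Ifng had at most 7 counts in a library. The 2 highest of the list were Cebpb at 32.0 ± 2.53 RPKM and Il22 at 23.0 ± 4.07 RPKM, with log2 fold changes of 0.088 and -0.041. Ahr followed at 6.65 ± 0.785 RPKM (813 to 1305 counts, log2 fold change 0.10).

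Listed as downstream of the factors were receptor, cytokine and other effector genes, and all 15 with a row were tested. By edgeR 0 passed an adjusted p-value of 0.05. When unadjusted 1 was higher and 5 were lower, which is 40% of the list beside 7.34% of all genes. These genes were measured more precisely, with a median standard error of 0.058 against 0.19 over all genes. Their median absolute change was 0.073, against 0.15 over all genes, so the 40% is not a sign of larger changes. Il1rl1, the IL-33 receptor gene on which GATA3 and GFI1 act, was the higher one (log2 fold change 0.12, adjusted p = 0.621 from edgeR). Il2ra, the high-affinity chain of the IL-2 receptor, averaged 2144 ± 108 normalized CPM with vehicle, against 1822 ± 73.1 under 5D (SD, n = 2, log2 fold change -0.23, standard error 0.041, unadjusted p = 0.000129, adjusted p = 0.0878 from edgeR). Ccr4, a chemokine receptor gene, had a log2 fold change of -0.41 (adjusted p = 0.356) and Il5, the highest of the list at 2991 RPKM, one of -0.084 (adjusted p = 0.552), both from edgeR. The median over the list was -0.055. A difference between this list and the factors was not tested.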

How the data were processed

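Per the labels and the methods, the authors aligned reads with STAR 2.6.1 to mm10 with GENCODE M21, quantified them in Partek and deposited estimated counts per gene without scaling. Whole numbers made up 51.5% to 54.6% of a library's values (tolerance 1e-09), and the rest were rounded here. Upper-quartile factors scaled the libraries. The 17650 genes kept had a mean scaled count of 1 or more and 10 or more counts in all. The test was edgeR 4.0.16's quasi-likelihood test (R 4.3.3) of 5D against vehicle without covariates, two-sided, Benjamini-Hochberg adjusted over all genes. Standard errors were obtained from the F statistic, as the change over its root, and 95% intervals use edgeR's degrees of freedom. RPKM divides normalized CPM by merged exon length in GENCODE M21. Alternatives were TMM, DESeq2 1.42.0, limma-voom (limma 3.58.1), other filters, a replicate block and leaving out each library. The code was tested on simulated data. The factors and lists were chosen with earlier results of these data known. Of the other lists, the genes named are those past an adjusted p-value of 0.05, the 2 highest and the 2 with the smallest p-values per list, relatives above 1 RPKM and the 3 genes nearest Gata3 (pseudocount 0.1), and further genes were chosen after their values were seen. A gene taken out of the lists afterwards is not reported here. Near-identical stretches were searched with BLAST 2.17.0, and figures were drawn with matplotlib 3.10.9. With 20096555 to 28697265 counts per library, precision was lowest for Tcf7.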

Additional observations from a re-analysis of the deposited data

How the results depend on the processing

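The count of factors past an adjusted p-value of 0.05 was 0 under every alternative run. At an unadjusted p-value it was 2 instead of 1 with limma-voom and with the replicate block, and 1 to 2 when a library was left out. In the full-table fits, the sign of each factor was the same under the alternatives that kept all 4 libraries. Without a library, the log2 fold change ranged from -0.0028 to 0.013 for Gata3, from -0.099 to 0.12 for Bcl11b, from -0.090 to 0.013 for Ets1 and from -0.16 to 0.073 for Maf, and the median of the factors from -0.12 to -0.062. In these fits the lone library of a group is assumed to vary like the other group. Over all genes, calls at an adjusted p-value of 0.05 went from 5 higher and 12 lower to 16 and 42 with DESeq2's Wald test, 9 and 23 with limma-voom, 11 and 35 without a filter, 19 lower with filterByExpr, and 3 to 73 higher and 12 to 107 lower without a library, the most without vehicle replicate 1 (73 and 107) and then without vehicle replicate 2 (32 and 47). The cause was not tested. The mean levels of the factors moved by less than 1 SD under CPM of the library total and TMM. The upper-quartile factors were 0.996 to 1.008, so that scaling by the library total could hardly move a mean. Leaving out 1 of 4 libraries cannot move a mean by 1 SD whatever the values, so it does not test the levels.

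The labels number the libraries in both groups, but differences between replicate 1 and replicate 2 correlated across genes between the groups with r = 0.0088 only, and nothing says that the numbers pair samples. With the number as a replicate block, the calls over all genes were 9 higher and 32 lower (adjusted p-value of 0.05), and 2 factors passed at an unadjusted p-value (Id2 and Nfil3).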
